A study of Mus musculus with 16 samples.

Results

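The liver of male C57BL/6J mice was compared between offspring of obese fathers and offspring of control fathers. The comparison took the 4 liver samples labelled F1 and the 4 labelled CT, 8 of the 16 samples of the series, and every probe set that the platform annotation gives 1 gene symbol, which were 19505 genes, 14773 of them kept with a mean above the lower quartile of values. The samples were chosen by their labels alone, and no measured value entered the choice. The other 8 samples of the series come from a white adipose tissue (eWAT in the labels) and were used only in 1 alternative fit.

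Fathers of the F1 mice had been fed a high-fat diet with 45% of lipids for 12 weeks from an age of 8 weeks, and fathers of the CT mice were fed chow. Both kinds of father were crossed with control females. All offspring were male and 14 weeks old when tissue was taken, and the labels name no engineered allele. The sources used here do not give litters, the number of fathers, any pooling or the diet of the offspring. The p-values below therefore measure only the spread between these samples. The question that the labels set is which transcripts differ in the liver of sons of obese fathers.

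The liver makes most proteins of the blood plasma and responds to inflammatory cytokines by changing which of them it secretes. Interleukin-6 reaches hepatocytes through its receptor and the shared subunit gp130, which activates the transcription factor STAT3 and, through it, the acute-phase genes. In the fed and fasted cycle the same cells switch between making fatty acids, under SREBP-1c and ChREBP, and burning them, under the nuclear receptor PPAR alpha.

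Values are log2 expression, on which a step of 1 is a factor of 2. The libraries are named CT 1 to CT 4 and F1 1 to F1 4 after the replicate numbers in the labels, and values of a gene are given in that order. Library medians were 5.21 to 5.24, and libraries correlated at 0.985 to 0.991 over all probe sets. The 13 hepatocyte markers found on the array had medians of 19.77 to 19.91, close to the top of the scale at 19.93, so the tissue label was borne out in each library. Plasma proteins such as Alb read 19.93 in all 8 libraries, and a difference in such a gene could not be seen.

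Markers of other tissues set F1 4, F1 1 and F1 2 apart, and some pancreas markers were raised in CT 2 too. The 22 exocrine pancreas genes reached a median of 10.34 in F1 4, while the other 7 libraries had 3.99 to 4.44. The amylase gene Amy2a5 was at 17.69 in F1 4, and the CT library with most of it, CT 2, was at 9.79. The median of 4.44 was that of CT 2. Ctrl at 6.12, Ctrb1 at 5.55 and Cpa1 at 5.43 were also higher in CT 2 than in any library but F1 4. Other pancreas markers, such as Cela2a and Pnliprp1, were not highest among CT libraries in CT 2. The 13 skeletal muscle genes had their highest medians in F1 2, at 4.71, and F1 1, at 4.55, with 3.75 to 3.89 elsewhere. Neutrophil markers had medians of 3.66 to 3.99 and pancreatic islet markers of 3.62 to 4.12, near the lower quartile of all values at 3.90. Kupffer cell and macrophage markers had medians of 8.44 to 9.21 in CT and of 8.68 to 9.15 in F1. In CT 2 the macrophage gene Marco was at 10.76, with 5.76 to 6.20 in the other CT libraries. Adgre1, Cd5l, Timd4, Lyz2 and Itgam were also highest among CT libraries in CT 2, while Cd163 and Ccr2 were lowest there. The part of these transcripts in the results was not tested beyond leaving out the libraries, and each called gene has its difference or adjusted p without F1 4 beside it. In whole tissue, fewer cells of a type and less RNA per cell cannot be told apart.

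Of 14773 genes above the lower quartile, limma called 23 at an adjusted p under 0.05 (0.156%), 16 higher in F1 (0.108%) and 7 lower (0.0474%). Centring each library on its median gave 19 higher and 16 lower, a share of 54.3% higher in place of 69.6%, and moved the median of all genes to -0.035. In all 23 genes the F1 libraries lay wholly above or wholly below the CT libraries, which was so for 2.68% and 2.69% of all genes. The 23 were picked by their p in these same libraries, which makes such a gap likely, so it adds no support. The folds ran from 1.87 to 266. At an unadjusted p under 0.05 the fit held 1348 genes (9.12%), 659 higher (4.46%) and 689 lower (4.66%), and the median difference of all genes was 0. These shares are the background for every list below. Each of 70 lists of gene roles and pathways is described by its members above the lower quartile, called kept members here. With 1 library left out, list counts of 3 or fewer members moved by up to 3 members, and list medians within 0.1 of 0 by up to 0.17. For larger counts and medians, the libraries that moved them by more than 1.5 times are named.

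**Figure D1:**
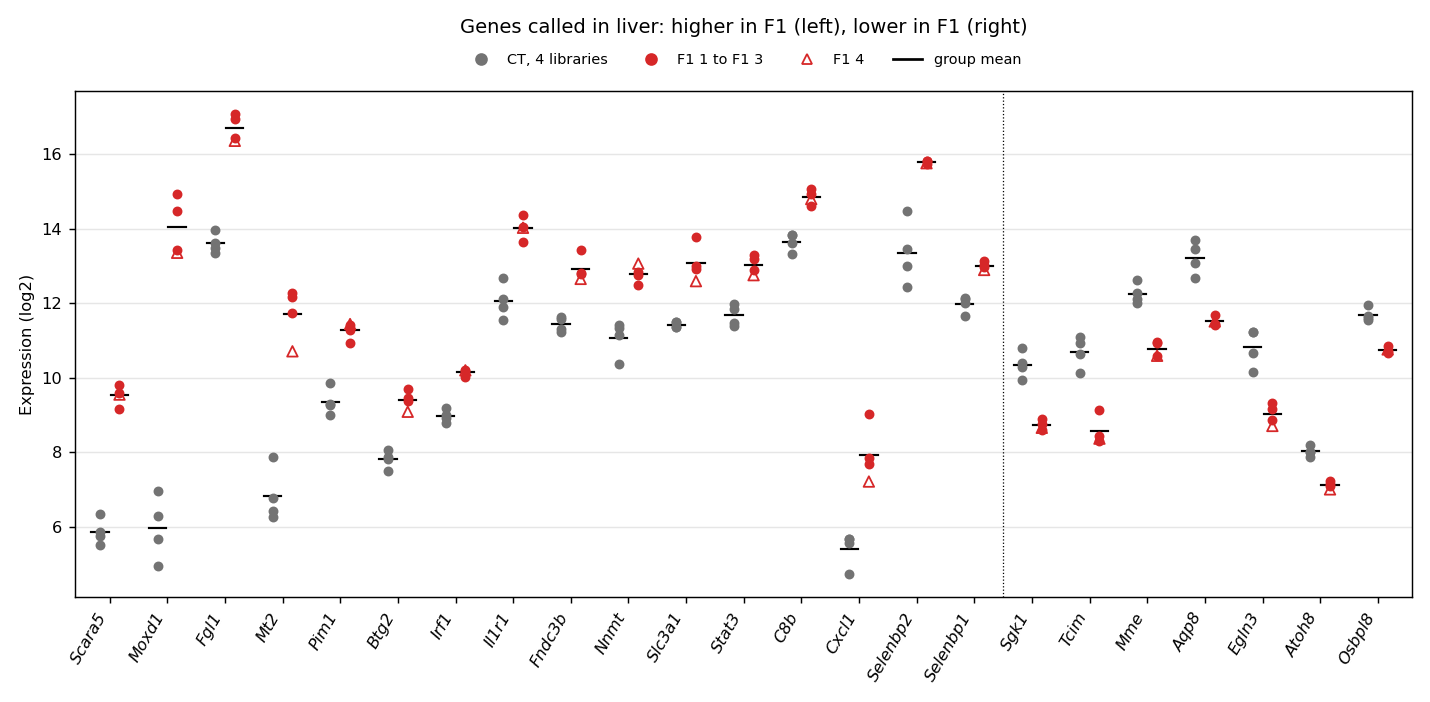
Log2 expression (y axis) of the 23 called genes (x axis) in the 8 liver libraries, with CT in grey, F1 1 to F1 3 as red dots, F1 4 as an open triangle and black bars for the group means. The groups do not overlap in any of the 23 genes, which their selection by p makes likely. F1 4 sits with the other F1 libraries and is lowest among them in Mt2 at 10.71 and in Cxcl1 at 7.22.

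Leaving out F1 4, the library with the most pancreas transcripts, gave 24 called genes of 14793 (0.162%), 17 higher (0.115%) and 7 lower (0.0473%). At an unadjusted p under 0.05, 4.60% of all genes were then higher and 4.56% lower. Of the 24, 16 were among the 23 and 8 were not. All 23 genes kept their direction, which was fixed in advance, since their groups do not overlap. Leaving out F1 1 and F1 2, the libraries with the highest muscle medians, gave 9 called genes, 4 of them among the 23. With a single library left out in turn, Scara5, Moxd1, Fgl1, Mt2 and Pim1 were called in all 8 fits, while Atoh8, C8b, Osbpl8 and Selenbp1 were called in none. Btg2 and Mme were called in 6 of the 8 fits, Sgk1 and Tcim in 5 and Irf1 in 4. Il1r1 and Aqp8 were called in 3, Stat3, Cxcl1, Slc3a1 and Fndc3b in 2, and Nnmt, Egln3 and Selenbp2 in 1. The count was 7 without CT 2 or F1 3, 8 without CT 4 and 10 without CT 3 or F1 2.

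Moxd1 had the largest difference of the called genes. It encodes a member of the copper-dependent monooxygenase family and is a known male-biased gene of mouse liver. Its values were 6.97, 6.31, 4.96 and 5.69 in CT and 13.43, 14.92, 14.46 and 13.35 in F1. The difference was 8.06 ± 0.47 (SE), or 266-fold (adjusted p = 6.86e-05), and 8.29 without F1 4. CT 3 was the lowest library and F1 2 the highest, and the gap between the groups was wider than the spread within either. The 250 bases before its RefSeq start (build GRCm38.p6, chr10:24223267-24223516, plus strand) are shown because they hold the STAT motif TTCCNGGAA, in capitals, 141 bases before the start.

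Moxd1: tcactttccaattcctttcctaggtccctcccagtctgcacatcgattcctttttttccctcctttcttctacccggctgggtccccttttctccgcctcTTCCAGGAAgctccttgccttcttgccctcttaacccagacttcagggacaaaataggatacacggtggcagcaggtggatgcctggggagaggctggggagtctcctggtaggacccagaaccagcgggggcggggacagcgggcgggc

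This motif, searched on both strands, was present before 1.04% of 14866 RefSeq starts of 11929 kept genes and before 1 of 16 starts of the called higher genes. A match is a description of these letters and no evidence of binding.

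The 9 lists of secreted proteins had 195 kept genes. Of these, 32 were higher at an unadjusted p under 0.05 (16.4% against 4.46% of all genes) and 9 lower (4.62% against 4.66%). Of them 3 were called, all higher: Fgl1, C8b and Cxcl1. In 30 genes all F1 libraries lay above all CT libraries (15.4% against 2.68% of all genes). In 5 they lay below (2.56% against 2.69%), near the share of all genes. Without F1 4 the counts at that p were 36 and 9, and the lower ones numbered 3 without CT 3 or F1 1 and 4 without CT 4 or F1 2.

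Of 26 kept acute-phase plasma proteins, 25 had the higher mean in F1, against 49.5% of all genes with a higher and 50.0% with a lower mean. The list median was 0.77 against 0 over all genes, and 0.74 without F1 4. Of these, 17 had an unadjusted p under 0.05, with differences of 0.66 to 4.97, and none was lower at that p. The list was written with earlier results of these data known, so its direction is no independent evidence. Fgl1, a fibrinogen-like protein that hepatocytes secrete, read 13.49, 13.35, 13.60 and 13.96 in CT and 17.07, 16.43, 16.93 and 16.35 in F1. It rose by 3.10 ± 0.21 (SE) (adjusted p = 2.36e-04; 3.21 without F1 4) and was the single called member. Its lowest F1 value lay above its highest CT value by more than the whole spread of the CT libraries.

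Other acute-phase genes did not pass and fell into distinct patterns over the libraries. Itih4, an inter-alpha-trypsin inhibitor heavy chain, read 15.19, 15.13, 15.15 and 15.32 in CT and 15.90, 16.05, 16.36 and 16.23 in F1 and differed by 0.94 ± 0.15 (SE) (adjusted p = 0.0569). The pentraxin Apcs read 8.93, 8.54, 8.89 and 9.44 in CT and 10.39, 9.66, 9.89 and 10.23 in F1 (1.09 ± 0.23 (SE), adjusted p = 0.145). In both genes all 4 F1 libraries lay above all CT libraries, within a narrow band.

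The serum amyloid genes Saa1 and Saa2, classical targets of interleukin-6 and interleukin-1, behaved otherwise. Saa1 read 6.62, 6.14, 5.57 and 5.66 in CT and 7.56, 7.88, 14.09 and 13.01 in F1, and Saa2 read 6.47, 7.68, 6.27 and 5.31 in CT and 8.16, 7.91, 15.75 and 13.81 in F1. F1 3 and F1 4 were far above the rest, while F1 1 and F1 2 lay above the highest CT library by much less. With that spread the differences of 4.64 ± 1.34 (SE) for Saa1 and 4.97 ± 1.59 (SE) for Saa2 had adjusted p-values of 0.309 and 0.373.

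Lcn2, an iron-siderophore binding protein of the acute phase, was likewise highest in F1 3 and F1 4, with 4.71, 5.58, 4.91 and 5.46 in CT and 7.68, 7.33, 11.75 and 12.62 in F1 and a difference of 4.68 ± 1.08 (SE) (adjusted p = 0.188). Serpina3n read 15.99, 16.76, 17.33 and 17.49 in F1 and Orm2, an orosomucoid, 6.27, 7.08, 8.05 and 7.78, with F1 1 inside the CT range and F1 3 and F1 4 highest in both. Lrg1, a leucine-rich glycoprotein, was above CT in all 4 F1 libraries and highest in F1 3 and F1 4, with 12.55, 12.26, 12.59 and 12.71 in CT and 13.11, 13.68, 14.39 and 14.18 in F1 (1.31 ± 0.26 (SE), adjusted p = 0.125). Saa1, Saa2, Saa3, Orm1, Orm2, Mt1 and Mt2, C4b and the selenium-binding genes each have close copies in the genome, so probes may share their signal.

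Not all acute-phase genes differed. Crp, which in the mouse is a weak acute-phase protein, read 13.92, 14.14, 14.27 and 14.18 in CT and 14.15, 13.91, 13.94 and 14 in F1 and had a difference of -0.13 ± 0.14 (SE). Hamp, the iron hormone hepcidin and another interleukin-6 target, read 15.16, 14.86, 13.81 and 14.98 in CT and 15.67, 14.94, 14.51 and 14.10 in F1 with a difference of 0.10 ± 0.37 (SE) (adjusted p = 0.963). The fibrinogen chains and haptoglobin (Hp, 19.66, 19.65, 19.55 and 19.52 in CT and 19.68, 19.69, 19.93 and 19.80 in F1) lay close to the ceiling of the array scale, so that a difference would appear too small.

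**Figure D2:**
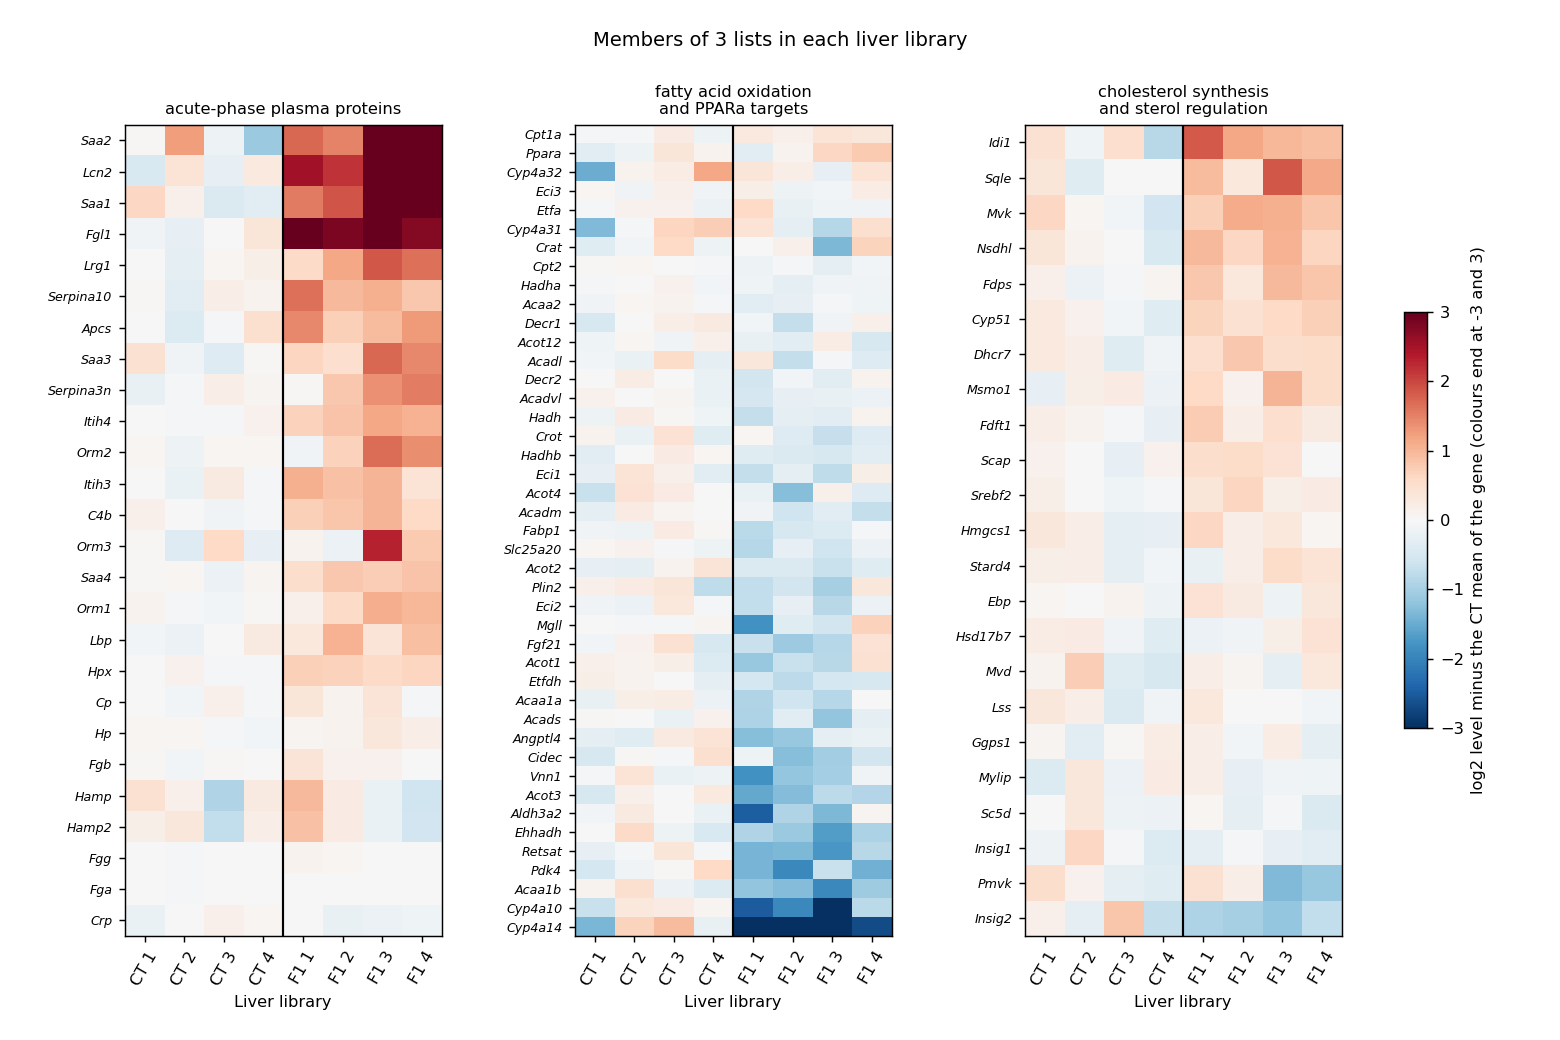
Log2 level of each kept member (rows) of 3 lists in each liver library (columns) minus the CT mean of that gene, with red for higher and blue for lower and colours ending at -3 and 3. Saa1, Saa2 and Lcn2 are most raised in F1 3 and F1 4, Fgl1 is raised in all 4 F1 libraries, and Cyp4a14 and Cyp4a10 are lowest in F1 3.

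Complement was the next secreted group, with 21 of 24 kept members having the higher mean and a median of 0.27 (0.20 without F1 4). The 6 members with an unadjusted p under 0.05, all higher, included 5 of the terminal pathway, which builds the pore of the membrane attack complex. C8b, a chain of that complex, rose from 13.83, 13.31, 13.82 and 13.61 in CT to 15.07, 14.61, 14.92 and 14.79 in F1, by 1.21 ± 0.17 (SE) (adjusted p = 0.0337, and 0.0719 without F1 4). C6 read 17.19, 16.45, 16.76 and 16.72 in CT and 18.08, 18.12, 17.57 and 18.22 in F1 (1.22 ± 0.21 (SE), adjusted p = 0.0671). Hc, which encodes complement C5, read 15.95, 15.75, 16.02 and 15.55 in CT and 17.26, 16.89, 16.97 and 16.48 in F1 (1.08 ± 0.19 (SE), adjusted p = 0.0833).

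C9 had 14.55, 14.22, 14.29 and 14.44 in CT and 15.92, 15.14, 15.61 and 14.97 in F1, and C8a had 14.20, 13.95, 14.22 and 13.97 in CT and 14.55, 15.03, 14.45 and 14.88 in F1, with differences of 1.03 and 0.64 that did not pass. The 5 terminal genes had no overlap between the groups, but they were picked by their unadjusted p, which makes such a gap likely. In the whole complement list all F1 values lay above CT in 6 of 24 kept members, against 2.68% of all genes, and below CT in none. C2, of the classical and lectin pathways, was the sixth, with 8.86, 8.87, 8.86 and 8.94 in CT and 10.14, 9.42, 10.08 and 9.41 in F1 (0.88 ± 0.20 (SE), adjusted p = 0.180). C6 and C8b also stand in the list of male-biased liver genes below.

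Of the cytokines and chemokines, 27 genes were kept and the median was 0.07. Cxcl1, which attracts neutrophils, read 5.57, 5.69, 5.67 and 4.73 in CT and 7.68, 9.02, 7.85 and 7.22 in F1 and rose by 2.53 ± 0.37 (SE) (adjusted p = 0.0337; 2.77 without F1 4). CT 4 was the lowest and F1 2 the highest library. Ccl9 read 10.85, 11.47, 11.06 and 11.15 in CT and 12.44, 12.11, 11.95 and 11.55 in F1 and differed by 0.88 ± 0.21 (SE) without passing (adjusted p = 0.217). Cxcl13, a B cell chemokine, overlapped between groups, and CT 2 alone reached 12.20 for Cxcl13 against 7.50 to 8.72 in the other CT libraries.

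The bases before the start of Cxcl1 (chr5:90890995-90891244, plus strand, GRCm38.p6) are shown because they hold an NF-kB motif 61 bases before the start, in capitals. The pattern TTGCNNCAA, 161 bases before the start, is in capitals too.

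Cxcl1: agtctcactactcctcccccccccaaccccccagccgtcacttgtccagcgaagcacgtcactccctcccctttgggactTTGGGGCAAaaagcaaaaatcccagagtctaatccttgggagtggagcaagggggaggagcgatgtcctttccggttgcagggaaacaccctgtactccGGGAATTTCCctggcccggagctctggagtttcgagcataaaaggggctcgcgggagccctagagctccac

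The NF-kB motif stood before 0.37% of all starts and the pattern TTGCNNCAA before 1.55%. Each stood before 1 of the 16 starts of called higher genes.

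Hepatokines and growth factors differed in single members. Tff3, a trefoil peptide of mucous epithelia that is low in normal liver, read 5.01, 4.84, 4.86 and 4.93 in CT and 11.83, 10.02, 7.83 and 7.40 in F1. F1 1 and F1 2 were highest and F1 4 lowest of the F1 libraries, and all were above CT, where the 4 values lay within a narrow band. The difference was 4.36 ± 0.81 (SE) (adjusted p = 0.0964) and 4.98 without F1 4 (adjusted p = 0.0491). Saa1 and Lcn2 were instead highest in F1 3 and F1 4. Gallbladder and bile duct markers had medians of 3.76 to 4.16 in CT, 3.88 to 4.22 in F1 1 to F1 3 and 4.56 in F1 4, and intestinal epithelium markers 3.87 to 4.10 in CT and 4.13 to 4.46 in F1, and their part in Tff3 was not tested. Of 7 kept biliary markers, 4 had the higher and 3 the lower mean in F1, the lower ones being Krt7, Epcam and Cldn4. Without F1 4, 2 were higher at unadjusted p under 0.05. With all libraries 3 were higher at that p, against 4.46% of all genes, and none lower. These were Sox9, a duct cell factor, with 8.20, 7.51, 7.24 and 7.54 in CT and 8.59, 8.58, 9.13 and 7.96 in F1, Cftr, a chloride channel, with 3.71, 3.69, 4.14 and 3.88 in CT and 4.18, 4.29, 4.38 and 4.17 in F1, and the mucin Muc1, with 4.85, 4.93, 4.82 and 5.30 in CT and 5.19, 5.71, 5.14 and 6.53 in F1. Of these Cftr alone had groups that did not overlap, with values near the lower quartile of all values at 3.90. None of the 3 passed adjustment. Of 9 kept intestinal markers, 1 was higher and 1 lower at that p.

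Igfbp1, an insulin-repressed binding protein of insulin-like growth factors, read 14.54, 14.47, 13.35 and 14.05 in CT and 12.21, 12.04, 13.76 and 12.43 in F1 and differed by -1.49 ± 0.39 (SE) (adjusted p = 0.254), with F1 3 inside the CT range. Igfals, the acid-labile subunit, differed by 0.74 ± 0.30 (SE) (adjusted p = 0.508), and Igf1 read 18.99, 18.66, 18.38 and 18.63 in CT and 18.87, 18.94, 18.70 and 18.67 in F1. Serpina7, the thyroxine-binding globulin, read 10.44, 10.42, 10.39 and 10.25 in CT and 8.97, 9.22, 10.03 and 9.03 in F1 (-1.06 ± 0.23 (SE), adjusted p = 0.155), with F1 3 nearest to CT. Angptl4, a lipoprotein lipase inhibitor and PPAR alpha target, had 13.30, 13.44, 14.31 and 14.39 in F1 against 14.28, 14.21, 14.84 and 14.99 in CT, with overlap (adjusted p = 0.506). Apolipoproteins and lipoprotein handling (22 kept) had a median of 0, with 7 members having the higher and 11 the lower mean. At unadjusted p under 0.05, 2 were lower. Apoa1 and Apob read 19.93 in all 8 libraries, the top of the scale, where no difference could be seen. Coagulation factors (21 kept) had a median of 0.04 with 2 higher at that p.

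The 5 lists of receptors held 139 kept genes, of which 17 were higher (12.2%) and 5 lower (3.60%) at an unadjusted p under 0.05. The higher ones numbered 10 without F1 2 and 11 without F1 3, and the lower ones 3 without CT 1, CT 3 or F1 3. The 2 called, Scara5 and Il1r1, were both higher. Scara5, a scavenger receptor that binds ferritin, read 5.52, 5.86, 5.77 and 6.34 in CT and 9.59, 9.17, 9.81 and 9.55 in F1 and rose by 3.66 ± 0.21 (SE), or 12.6-fold (adjusted p = 6.86e-05; 3.65 without F1 4). Both groups were tight, and the gap between them was far wider than either spread. Il1r1, the signalling receptor of interleukin-1, read 11.91, 11.54, 12.11 and 12.68 in CT and 13.65, 14.36, 14.04 and 14.02 in F1 and rose by 1.96 ± 0.25 (SE) (adjusted p = 0.0188; 1.96 without F1 4), with CT 4 the nearest CT library to F1.

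Receptors of the interleukin-6 family did not pass. Il6ra, the ligand-binding chain, read 11.08, 11.27, 11.90 and 12.92 in CT and 12.62, 12.60, 13.49 and 12.68 in F1, where CT 4 lay within the F1 range (1.05 ± 0.38 (SE), adjusted p = 0.455). Il6st, the gp130 chain, read 14.55, 14.54, 14.30 and 14.64 in CT and 14.70, 15.27, 14.74 and 14.95 in F1 and differed by 0.41 ± 0.17 (SE) (adjusted p = 0.514). Cytokine receptors together had 7 of 34 kept members higher and 2 lower at unadjusted p under 0.05, with a median of 0.11 (0.06 with CT 1 left out, 0.18 with CT 3, 0.20 with F1 1 and 0.23 with CT 4). The lower ones were Il22ra1, the receptor chain for interleukin-22 (7.36, 8.03, 8.30 and 9.09 in CT, 6.35, 7.35, 7.14 and 7.20 in F1, adjusted p = 0.326), and Tnfrsf12a, the receptor of the cytokine TWEAK (-1.07, adjusted p = 0.514).

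Lepr, the leptin receptor, read 6.97, 6.98, 7.18 and 7.39 in CT and 5.79, 5.76, 5.61 and 6.38 in F1. It was lower in every F1 library, with a difference of -1.25 ± 0.20 (SE), and just missed the threshold with all libraries (adjusted p = 0.0540). Without F1 4, which was the F1 library nearest to CT, the difference was -1.41 and passed (adjusted p = 0.0275). Hormone and metabolic receptors as a list had a median of -0.03 over 43 kept genes. The insulin receptor Insr read 15.05, 15.09, 15.22 and 15.12 in CT and 15.13, 15.36, 15.63 and 15.32 in F1, and the growth hormone receptor Ghr differed by -0.05 ± 0.13 (SE).

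Of the remaining receptors, Clec4f, a lectin of Kupffer cells, had 9.80, 9.40, 10.06 and 9.69 in CT and 10.71, 10.17, 10.75 and 10.40 in F1 (adjusted p = 0.235), with no overlap. Toll-like and innate sensors had 4 of 22 kept members higher at unadjusted p under 0.05, among them Tlr7, a sensor of single-stranded RNA, with 0.81 ± 0.28 (SE) (adjusted p = 0.425). Their number was 2 without CT 1, CT 2, CT 4, F1 1, F1 2 or F1 3. Marco, a macrophage scavenger receptor, stood at 10.76 in CT 2 and between 5.23 and 6.41 in the other libraries. Egfr, the receptor of epidermal growth factor and a male-biased gene of mouse liver, had 16.32, 16.11, 14.63 and 15.75 in CT and 16.23, 16.60, 16.72 and 17.12 in F1 with overlap (adjusted p = 0.455).

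Transporters and metal handling had 256 kept genes in 9 lists, with 24 higher (9.38%) and 20 lower (7.81%) at unadjusted p under 0.05. Called were Scara5, Mt2 and Slc3a1, higher, and Aqp8, lower. Mt2, one of the cysteine-rich metallothioneins that buffer zinc and copper, read 6.28, 6.77, 6.43 and 7.88 in CT and 11.73, 12.17, 12.26 and 10.71 in F1. It rose by 4.88 ± 0.41 (SE), or 29.4-fold (adjusted p = 0.00129; 5.21 without F1 4). CT 4 was the highest CT library and F1 4 the lowest F1 library, and the gap between them was still wider than the spread of either group.

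Mt1, the neighbouring metallothionein gene, read 8.63, 10.12, 8.20 and 9.39 in CT and 12.41, 11.76, 13.23 and 11.09 in F1 with a difference of 3.04 ± 0.50 (SE) (adjusted p = 0.0615) that passed without F1 4 (3.38, adjusted p = 0.0420). Slc39a14, a zinc and iron importer that inflammation induces in liver, read 13.99, 14.09, 13.67 and 13.92 in CT and 14.16, 14.82, 14.38 and 14.66 in F1 (0.59 ± 0.18 (SE), adjusted p = 0.351). Steap4, a metalloreductase, read 12.91, 12.86, 12.37 and 12.49 in CT and 13.45, 14.12, 13.71 and 14.19 in F1 (1.21 ± 0.21 (SE), adjusted p = 0.0727), and hemopexin (Hpx), the heme carrier of plasma, 18.87, 19, 18.82 and 18.81 in CT and 19.59, 19.57, 19.44 and 19.53 in F1 (adjusted p = 0.123). The groups did not overlap in any of these 4 genes. Of the iron list 5 of 30 kept members were higher and none lower at unadjusted p under 0.05, and of the list of other metal transporters 6 of 35 were higher and 1 lower. The iron median was 0.06, and -0.11 without F1 1. The export channel ferroportin (Slc40a1) had a difference of -0.10 ± 0.20 (SE), the transferrin receptor Tfrc of 0.38 ± 0.39 (SE) and the ferritin chain Fth1 of -0.02 ± 0.14 (SE).

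The promoter of Mt2 (chr8:94172368-94172617, plus strand, GRCm38.p6) is shown with the metal response element core in capitals, TGCACNC ending at 216 and 43 bases and TGCGCNC at 121 bases before the start. This core is the known target of the zinc-sensing factor MTF-1.

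Mt2: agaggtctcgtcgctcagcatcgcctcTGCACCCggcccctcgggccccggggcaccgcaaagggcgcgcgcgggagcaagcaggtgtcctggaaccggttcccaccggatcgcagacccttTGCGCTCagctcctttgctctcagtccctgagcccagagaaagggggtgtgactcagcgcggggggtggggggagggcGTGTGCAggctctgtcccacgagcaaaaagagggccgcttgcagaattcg

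TGCACNC stood before 6 of 16 starts of called higher genes (37.5%), before 1 of 13 starts of called lower genes (7.69%) and before 10.4% of all starts. The motif is short, and the starts of Selenbp1 and Selenbp2, which are copies of one another, are 2 of the 6.

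Among solute carriers Slc3a1, a subunit of the transporter of cystine and dibasic amino acids, read 11.50, 11.36, 11.35 and 11.49 in CT and 13.77, 13, 12.91 and 12.59 in F1. The CT values were nearly equal, and F1 1 was the highest. The gene rose by 1.64 ± 0.23 (SE) (adjusted p = 0.0337; 1.80 without F1 4) and was the single called gene of 276 kept genes with an Slc symbol. Of those, 16 were higher and 18 lower at unadjusted p under 0.05, near the background shares. Glucose and monocarboxylate transporters (19 kept) had 3 higher and 1 lower, and amino acid transporters (32 kept) had 1 higher and 1 lower at that p. Slc16a5, a monocarboxylate carrier family member, read 4.92, 6.25, 6.88 and 5.78 in CT and 7.65, 7.33, 7.13 and 7.63 in F1 (1.48 ± 0.36 (SE), adjusted p = 0.211), and Slc2a2, the main glucose transporter of hepatocytes, 17.87, 18.16, 17.94 and 18.56 in CT and 16.39, 17.51, 18.04 and 17.94 in F1 (-0.66 ± 0.34 (SE), adjusted p = 0.614), where F1 1 was lowest and F1 2 also lay below all CT libraries.

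Among aquaporins the mean was lower in F1 in most members, with 7 of 9 kept members lower and a median of -0.27. The median was -0.10 with no filter on dim genes and -0.44 with a filter at the median. At an unadjusted p under 0.05, 4 were lower and 1 higher. Aqp8, a water channel of hepatocytes, read 13.69, 13.46, 12.67 and 13.07 in CT and 11.45, 11.41, 11.69 and 11.51 in F1 and fell by 1.71 ± 0.22 (SE) on the log2 scale (adjusted p = 0.0188; -1.71 without F1 4). The F1 libraries lay within a narrow band below the lowest CT library. Aqp4, Aqp1 and Aqp7, the last a glycerol channel, differed by -1.20, -0.44 and -0.39 without passing. Aqp9, the glycerol channel of hepatocytes, differed by -0.27 ± 0.17 (SE), and Aqp11, a channel of the endoplasmic reticulum, was higher, with 11.96, 12.11, 12.22 and 12.86 in CT and 13.37, 13.08, 13.18 and 13.44 in F1 (adjusted p = 0.148).

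The start of Aqp8 (chr7:123462044-123462293, plus strand, GRCm38.p6) is shown because it holds the E-box CACGTG, the element of clock and carbohydrate-response factors, 69 bases and TGCACNC 179 bases before the start, in capitals.

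Aqp8: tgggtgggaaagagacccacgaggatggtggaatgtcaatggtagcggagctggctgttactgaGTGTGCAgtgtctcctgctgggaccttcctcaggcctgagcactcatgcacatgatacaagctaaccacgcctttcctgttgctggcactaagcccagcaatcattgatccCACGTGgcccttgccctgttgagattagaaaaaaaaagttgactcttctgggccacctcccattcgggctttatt

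CACGTG stood before 4 of 13 starts of called lower genes (30.8%), before 1 of 16 starts of called higher genes (6.25%) and before 7.47% of all starts. Of the 13 starts, 6 belong to Sgk1 and 3 to Mme. By gene it stood before 4 of 6 called lower, 1 of 13 called higher and 8.78% of all kept genes. The motif is short, the called lower genes are few, and several motifs were searched without a test.

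Among exporters and bile transporters the following values were measured. Abcc3, a basolateral exporter of conjugated bile acids and glucuronides, read 17.18, 17.20, 17.04 and 17.21 in CT and 15.95, 16.53, 16.09 and 16.46 in F1 (-0.90 ± 0.17 (SE), adjusted p = 0.0964), with the CT values close together and every F1 value below them. Slc10a1, the sodium-dependent uptake carrier of bile acids, read 16.83, 16.92, 16.74 and 16.95 in CT and 15.68, 16.14, 16.67 and 16.74 in F1, so that F1 1 and F1 2 were low while F1 3 and F1 4 were near CT. Slc10a2, its relative known from the ileum, was higher in every F1 library (10.72, 11.42, 10.90 and 11.31 in CT and 12.11, 12.90, 12.01 and 11.58 in F1; adjusted p = 0.254). The canalicular bile salt pump Abcb11 differed by -0.13 ± 0.19 (SE). ABC transporters had the lower mean in 25 of 37 kept members, and 2 were lower at unadjusted p under 0.05, with 3 higher.

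Mitochondrial carriers had 5 of 37 kept members lower at unadjusted p under 0.05 and none higher, with a median of -0.06. The count was 2 without F1 1 and 3 without CT 1 or CT 2. They included Slc25a20, the carnitine-acylcarnitine carrier (12.14, 12.22, 12.05 and 11.94 in CT, 11.23, 11.83, 11.50 and 11.90 in F1), Slc25a10, the dicarboxylate carrier (-0.60), and Mpc1, of the mitochondrial pyruvate carrier (-0.40), none of which passed. Slc25a25 varied most, with 15.59, 15.01, 13.40 and 14.17 in CT and 11.81, 12.24, 13.44 and 14.36 in F1: F1 1 and F1 2 were below all CT libraries, and F1 3 and F1 4 were not.

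Transcription factors and their regulators had 216 kept genes in 7 lists, 32 of them higher (14.8%) and 17 lower (7.87%) at unadjusted p under 0.05. Without F1 4 the counts were 24 and 14. The 4 called were Stat3, Irf1 and Btg2, higher, and Atoh8, lower. Stat3, which gp130 receptors activate, read 11.99, 11.84, 11.47 and 11.40 in CT and 13.19, 13.28, 12.88 and 12.75 in F1 and rose by 1.35 ± 0.19 (SE) (adjusted p = 0.0337; 1.44 without F1 4). Irf1, an interferon-regulated factor that is also a STAT target, read 9.0, 9.18, 8.92 and 8.78 in CT and 10.01, 10.18, 10.22 and 10.20 in F1 and rose by 1.18 ± 0.15 (SE) (adjusted p = 0.0152; 1.17 without F1 4). In both genes the lowest F1 library was well above the highest CT library.

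Btg2, an antiproliferative coregulator, rose from 7.49, 8.07, 7.89 and 7.83 in CT to 9.70, 9.38, 9.47 and 9.09 in F1, by 1.59 ± 0.18 (SE) (adjusted p = 0.0151; 1.70 without F1 4). Atoh8, a helix-loop-helix factor that bone morphogenetic protein signals induce in hepatocytes, fell from 7.89, 8.01, 8.21 and 8.0 to 7.10, 7.16, 7.23 and 7.01, by 0.90 ± 0.14 (SE) (adjusted p = 0.0477, and 0.0999 without F1 4). Its groups were tight and did not overlap, although the size of the change was the smallest of the 23. Hes1, a target of Notch, read 4.38, 4.03, 5.07 and 5.06 in CT and 6.28, 6.04, 5.62 and 5.54 in F1 (1.24 ± 0.27 (SE), adjusted p = 0.162).

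Immediate-early genes differed in both directions. Junb (7.88, 7.45, 7.71 and 7.63 in CT and 8.36, 9.92, 9.78 and 8.90 in F1) and Trib1 (9.47, 8.45, 8.02 and 8.16 in CT and 9.67, 10.13, 10.74 and 9.85 in F1) were higher in every F1 library, with adjusted p-values of 0.129 and 0.152. Egr1 read 10.33, 10.17, 10.45 and 11.14 in CT and 15.13, 13.79, 13.19 and 10.25 in F1: F1 1 to F1 3 were above all CT libraries and F1 4 was not. Its difference was 2.57 ± 0.83 (SE) (adjusted p = 0.373) with all libraries and 3.51 without F1 4 (adjusted p = 0.0275), so that 1 library decided the call. Sik1, a kinase that cyclic AMP induces, was lower, with 10.93, 11.47, 9.65 and 10.25 in CT and 8.59, 8.30, 9.30 and 9.40 in F1 (adjusted p = 0.196), as was Nr4a1, with 6.53, 6.85, 4.90 and 5.26 in CT and 4.45, 3.82, 4.43 and 4.86 in F1 (adjusted p = 0.297). The list had 8 of 43 kept members higher and 5 lower at unadjusted p under 0.05, the higher ones 5 without F1 3.

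Nuclear receptors had 4 of 40 higher and 5 lower at unadjusted p under 0.05, the lower ones 2 without CT 3 and 3 without F1 1. Ppargc1b, a coactivator of lipid metabolism, read 7.90, 8.49, 8.47 and 9.27 in CT and 10.03, 10.14, 11.30 and 10.32 in F1 (1.92 ± 0.34 (SE), adjusted p = 0.0753), and none of its F1 values overlapped CT. Nr4a1, Nr4a2 and Nr4a3, orphan receptors that are also immediate-early genes, were among the lower ones. Factors that define hepatocytes had a median of 0.08 over 26 kept genes, and Hnf4a read 16.23, 16.19, 16.48 and 16.41 in CT and 16.77, 16.45, 16.69 and 16.51 in F1.

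Clock genes varied widely between F1 libraries, and none was called. Of 21 kept genes, 6 were higher and 1 lower at unadjusted p under 0.05, with a median of 0.22, 0.16 without F1 4, 0.45 without F1 1 and 0.76 without F1 1 and F1 2. The higher ones numbered 3 without CT 1, F1 3 or F1 4. Nr1d1, the repressor REV-ERB alpha, read 11.69, 12.27, 12.14 and 12.53 in CT and 12.87, 13.96, 13.90 and 14.20 in F1 (1.57 ± 0.29 (SE), adjusted p = 0.0964). Dbp, an output factor with a strong daily rhythm, read 6.22, 8.44, 7.82 and 8.38 in CT and 8.83, 9.04, 12.39 and 11.87 in F1 (adjusted p = 0.327), and Ciart 4.36, 4.73, 4.48 and 4.49 in CT and 4.05, 5.76, 9.47 and 7.32 in F1. F1 3 was highest in Dbp and Ciart.

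Arntl, the core activator BMAL1 that peaks opposite to Dbp, read 10.31, 9.90, 10.36 and 9.73 in CT and 10.16, 9.70, 6.74 and 9.26 in F1, with F1 3 far below the others. Npas2, a partner of BMAL1, read 9.0, 6.81, 7.71 and 7.11 in CT and 6.51, 6.62, 4.69 and 5.38 in F1 (adjusted p = 0.309), with F1 3 again lowest. The time of day at which tissue was taken is not given in the sources used here, and its part in these values was not tested.

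**Figure D3:**
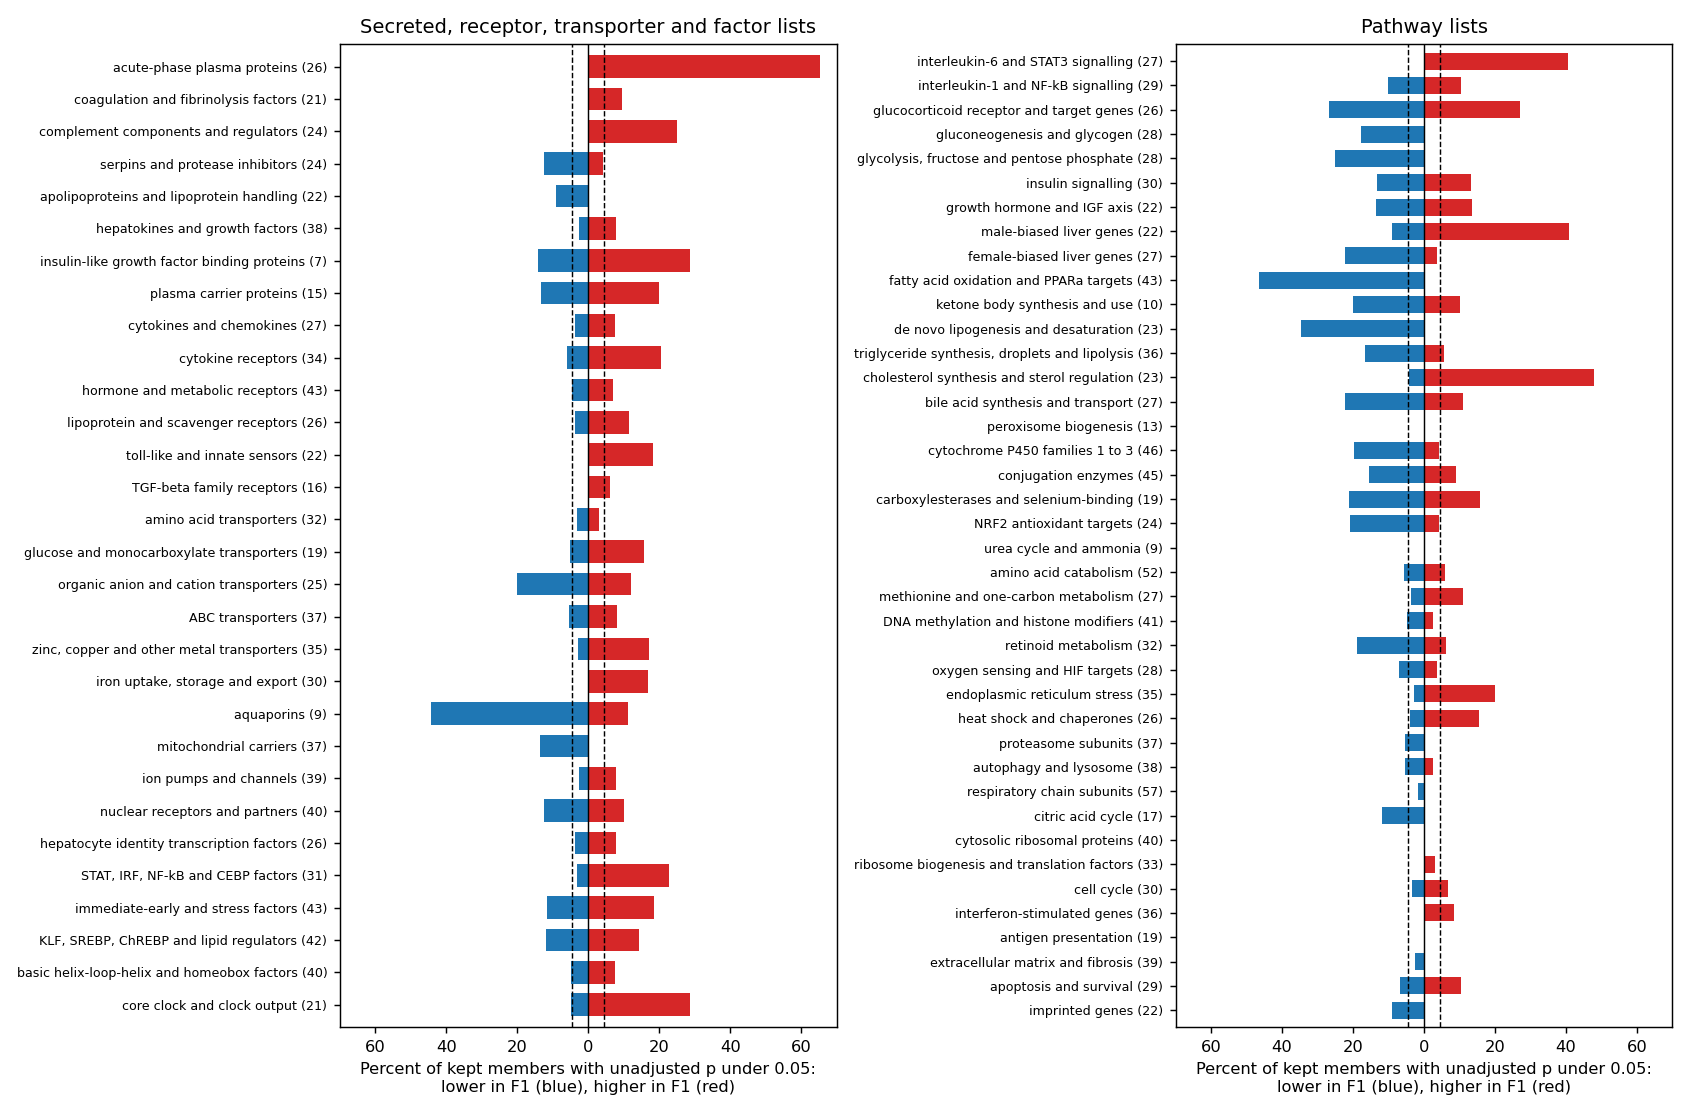
Percent of kept members with an unadjusted p under 0.05 (x axis), higher in F1 to the right and lower to the left, for the 30 role lists (left panel) and 40 pathway lists (right panel), with the number of kept members in brackets and dashed lines at the shares of all genes, 4.46% and 4.66%. Acute-phase proteins reach furthest to the right and fatty acid oxidation with PPAR alpha targets furthest to the left.

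In the interleukin-6 and STAT3 list 21 of 27 kept members had the higher mean, with a median of 0.48, or 0.68 without F1 4. The 4 called were Fgl1, Pim1, Il1r1 and Stat3, and 11 were higher and none lower at unadjusted p under 0.05. Pim1, a survival kinase and STAT target, read 9.28, 8.99, 9.29 and 9.85 in CT and 11.29, 11.41, 10.93 and 11.44 in F1 and rose by 1.92 ± 0.21 (SE) (adjusted p = 0.0102; 1.86 without F1 4). Socs3, the feedback inhibitor of STAT3, read 4.69, 4.18, 4.56 and 5.02 in CT and 5.66, 7.60, 5.04 and 5.48 in F1, with F1 2 far above the other F1 libraries (1.33 ± 0.48 (SE), adjusted p = 0.455). In the interleukin-1 and NF-kB list, by contrast, 3 were higher and 3 lower at that p among 29, with Il1r1 and Cxcl1 the called ones. The lists share members, and the difference between them was not tested. Of 36 kept interferon-stimulated genes, 31 had the higher mean in F1, with a median of 0.15. At an unadjusted p under 0.05, 3 were higher and none lower, and 3 and 1 without F1 4. Irf1 was the single one called.

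Fatty acid oxidation and PPAR alpha targets had the lower mean in F1 for 38 of 43 kept genes, and the list median was -0.44. At unadjusted p under 0.05, 20 were lower, with differences of -0.40 to -4.89, and none higher. Without F1 4 these were 25, with a median of -0.57, and the lower ones numbered 11 without F1 3 and 13 without CT 3. None was called with all libraries.

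The P450 genes of this list had the largest differences. Cyp4a14, a fatty acid omega-hydroxylase and sensitive PPAR alpha target, read 14.12, 16.16, 16.46 and 15.27 in CT and 11.93, 10.42, 7.27 and 12.83 in F1 (-4.89 ± 1.04 (SE), adjusted p = 0.148). Cyp4a10, its close relative, read 15.46, 16.44, 16.38 and 16.21 in CT and 13.63, 14.20, 12.11 and 15.31 in F1 (adjusted p = 0.212). In both, F1 3 was lowest and F1 4 nearest to CT, and no F1 value reached a CT value.

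Peroxisomal steps followed. The thiolase Acaa1b read 13.89, 14.26, 13.62 and 13.37 in CT and 12.61, 12.49, 11.85 and 12.72 in F1 (-1.37 ± 0.25 (SE), adjusted p = 0.0833), and the bifunctional enzyme Ehhadh 16.14, 16.70, 15.96 and 15.67 in CT and 15.22, 15.01, 14.44 and 15.16 in F1 (-1.16 ± 0.25 (SE), adjusted p = 0.155). Retsat, a retinol saturase that PPAR factors induce, read 14.33, 14.55, 14.95 and 14.52 in CT and 13.20, 13.25, 12.84 and 13.75 in F1 (-1.33 ± 0.22 (SE), adjusted p = 0.0596) and passed without F1 4 (-1.49, adjusted p = 0.0414). Pdk4, which restrains pyruvate oxidation in fasting, read 7.66, 8.09, 8.23 and 8.78 in CT and 6.79, 6.25, 7.53 and 6.75 in F1 (adjusted p = 0.162).

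The receptor itself and the gate of mitochondrial uptake were exceptions. Ppara read 14.35, 14.50, 15.01 and 14.77 in CT and 14.32, 14.77, 15.28 and 15.44 in F1, and Cpt1a 14.89, 14.88, 15.16 and 14.76 in CT and 15.21, 15.07, 15.33 and 15.27 in F1, and their differences of 0.29 and 0.30 did not pass. Among mitochondrial enzymes Acadm, the medium-chain dehydrogenase, differed by -0.43 ± 0.19 (SE). In ketone body metabolism Bdh1, which makes beta-hydroxybutyrate, read 16.46, 16.19, 16.57 and 16.52 in CT and 14.89, 15.63, 14.92 and 15.50 in F1, all F1 values below CT (-1.20 ± 0.21 (SE), adjusted p = 0.0695), and the list had a median of -0.14 over 10 kept genes (-0.25 without CT 4).

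**Figure D4:**
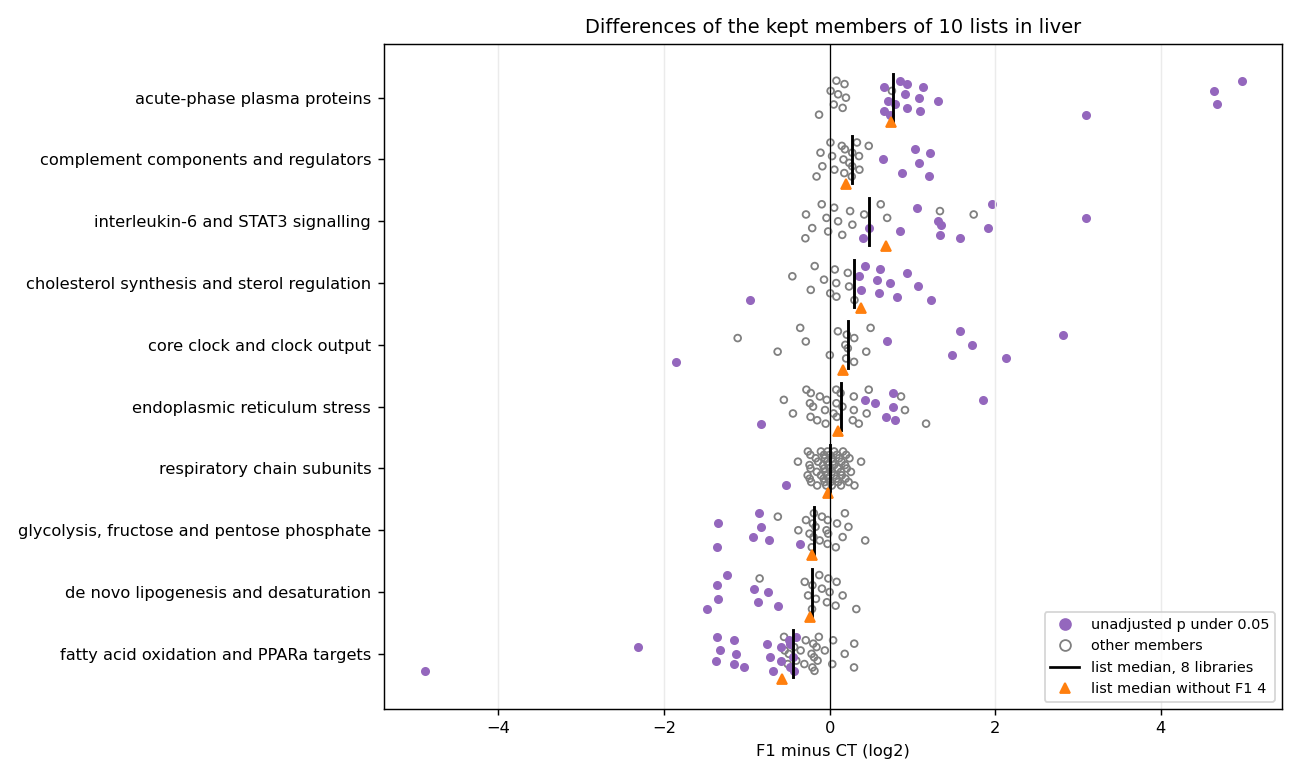
F1 minus CT on the log2 scale (x axis) of the kept members of 10 lists (rows), filled where the unadjusted p was under 0.05, with a black line at the list median over 8 libraries and an orange triangle at the median without F1 4. Acute-phase members lie mostly right of 0 around a median of 0.77, members of fatty acid oxidation mostly left of it around -0.44, and respiratory chain subunits close to 0.

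In fatty acid synthesis no gene was called. Of 23 kept lipogenic genes, 8 were lower at unadjusted p under 0.05 and none higher, with a median of -0.21 (-0.24 without F1 4). That median was -0.38 without CT 3, -0.33 without CT 4 and -0.11 without CT 1. Fasn, the fatty acid synthase, read 15.56, 15.87, 14.55 and 15.29 in CT and 13.05, 13.92, 14.54 and 14.33 in F1 (-1.36 ± 0.36 (SE), adjusted p = 0.256), where F1 1 was lowest and F1 3 lay just below the lowest CT value. Malic enzyme Me1 read 15.36, 15.29, 14.92 and 15.06 in CT and 13.79, 13.28, 14.32 and 14.27 in F1 (-1.24 ± 0.24 (SE), adjusted p = 0.108), and the elongase Elovl5 19.11, 19.01, 19.18 and 18.82 in CT and 18.55, 17.93, 18.06 and 17.91 in F1 (-0.92 ± 0.18 (SE), adjusted p = 0.115). Elovl3, an elongase of very long chains that is male-biased and rhythmic in liver, read 18.16, 17.88, 18.19 and 17.59 in CT and 17.12, 17.12, 14.91 and 16.75 in F1, with F1 3 again apart.

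Among droplet genes Hsd17b11, a lipid droplet dehydrogenase, was lower in each F1 library (15.52, 15.78, 15.68 and 15.41 in CT and 14.19, 14.66, 14.28 and 14.78 in F1; -1.12 ± 0.18 (SE), adjusted p = 0.0558), while Pnpla2, the triglyceride lipase ATGL, was higher (10.41, 10.29, 10.61 and 10.70 in CT and 11.01, 10.90, 11.50 and 11.25 in F1; adjusted p = 0.267). The list had 6 of 36 lower and 2 higher at unadjusted p under 0.05.

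Cholesterol synthesis had 18 of 23 kept members with a difference above 0, a median of 0.30, and 11 higher against 1 lower at unadjusted p under 0.05. The higher ones numbered 7 without CT 4. Idi1, the isopentenyl diphosphate isomerase, read 12.83, 12.24, 12.89 and 11.54 in CT and 14.21, 13.54, 13.38 and 13.28 in F1 (1.23 ± 0.32 (SE), adjusted p = 0.252), and Nsdhl, a sterol dehydrogenase, 14.32, 14.06, 13.93 and 13.48 in CT and 14.91, 14.57, 14.98 and 14.59 in F1 (0.81 ± 0.20 (SE), adjusted p = 0.225). Fdps, the farnesyl diphosphate synthase, read 11.18, 10.84, 10.96 and 11.11 in CT and 11.82, 11.33, 12 and 11.85 in F1. In these 3 genes all F1 values lay above CT, and none passed. The one lower member was Insig2, which retains SREBP factors in the endoplasmic reticulum, with 12.74, 12.32, 13.44 and 11.89 in CT and 11.67, 11.60, 11.44 and 11.85 in F1 (-0.96 ± 0.29 (SE), adjusted p = 0.341). Cyp7a1, the rate-limiting enzyme of bile acid synthesis, overlapped, with 13.03, 14.98, 13.47 and 15.39 in CT and 16.19, 14.28, 13.07 and 14.94 in F1.

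Glucose metabolism had lower members and none higher at unadjusted p under 0.05: 5 of 28 in gluconeogenesis and glycogen and 7 of 28 in glycolysis, fructose and pentose phosphate metabolism, with medians of -0.02 and -0.19. The gluconeogenesis count was 2 without CT 1, CT 4 or F1 1 and 3 without CT 3, F1 2 or F1 4. The glycolysis count was 4 without F1 2, and its median -0.10 without F1 2. G6pc, the glucose-6-phosphatase, read 19.16, 19.08, 18.17 and 18.79 in CT and 16.37, 16.58, 17.98 and 18.05 in F1 (-1.55 ± 0.41 (SE), adjusted p = 0.254). F1 1 and F1 2 were more than 1 log2 unit below F1 3 and F1 4. Pck1, the other key enzyme of gluconeogenesis, differed by 0.06 ± 0.21 (SE). Pklr, the liver pyruvate kinase and a ChREBP target, read 17.23, 16.80, 16.28 and 17.32 in CT and 14.32, 15.76, 15.99 and 16.18 in F1, with F1 1 lowest (-1.34 ± 0.40 (SE), adjusted p = 0.325).

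Irs1, an adaptor of the insulin receptor, read 10, 10.19, 10.47 and 10.60 in CT and 9.39, 8.72, 8.52 and 9.63 in F1, lower in all F1 libraries (-1.25 ± 0.26 (SE), adjusted p = 0.145; 0.0872 without F1 4). Grb10, an imprinted inhibitor of insulin signalling, read 6.75, 5.90, 6.10 and 6.47 in CT and 5.44, 5.61, 5.85 and 5.89 in F1 (adjusted p = 0.426). Of 30 kept members of the insulin list, 13 had the higher and 17 the lower mean in F1. At an unadjusted p under 0.05, 4 were higher and 4 lower, and the lower ones numbered 2 without CT 2 or F1 1. Of 22 kept imprinted genes, 10 had the higher and 12 the lower mean, with a median of -0.05, and 2 were lower and none higher at that p. Of 41 kept DNA methylation and histone modifiers, 17 had the higher and 24 the lower mean, and 1 was higher and 2 lower at that p.

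Glucocorticoid receptor targets divided evenly: 7 of 26 kept members were higher and 7 lower at unadjusted p under 0.05. Mt2 was called higher and Sgk1 lower. Sgk1, a serum- and glucocorticoid-induced kinase, read 10.80, 10.39, 10.29 and 9.94 in CT and 8.61, 8.89, 8.76 and 8.66 in F1 and fell by 1.62 ± 0.19 (SE) (adjusted p = 0.0151; -1.60 without F1 4). Tsc22d3, the glucocorticoid-induced leucine zipper GILZ, read 12.13, 12.74, 12.72 and 12.64 in CT and 10.99, 10.90, 12.20 and 11.68 in F1 (-1.11 ± 0.29 (SE), adjusted p = 0.253), whereas Fkbp5, another classical target, read 9.92, 11, 11.68 and 12.69 in CT and 13.20, 12.99, 14.27 and 12.49 in F1 (1.92 ± 0.55 (SE), adjusted p = 0.309). CT 1 was lowest and F1 3 highest for Fkbp5, and CT 4 lay above F1 4.

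Sex-biased genes of liver, which the pattern of growth hormone sets, were counted by direction. Of 22 kept male-biased genes 9 were higher and 2 lower at unadjusted p under 0.05, with 3 called (Moxd1, C8b and Selenbp2) and a median of 0.33. Of 27 kept female-biased genes 1 was higher and 6 were lower at that p, with a median of 0.01. Cyp4a10, Cyp4a14 and Acot3, which are PPAR alpha targets too, were among the lower ones. Selenbp2 read 14.47, 13, 12.44 and 13.44 in CT and 15.72, 15.82, 15.82 and 15.75 in F1 and rose by 2.44 ± 0.36 (SE) (adjusted p = 0.0337, and 0.0794 without F1 4), and its near copy Selenbp1 read 12.10, 12.01, 11.65 and 12.14 in CT and 12.96, 13.12, 13.01 and 12.89 in F1 and rose by 1.02 ± 0.16 (SE) (adjusted p = 0.0475; 1.05 and adjusted p = 0.0807 without F1 4). The F1 values of both were closer together than the CT values. The male-biased Mup3 and Cyp2d9 lay near the top of the scale, with differences of -0.02 and -0.36.

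In conjugation and drug metabolism Nnmt, which methylates nicotinamide with S-adenosylmethionine, read 10.37, 11.41, 11.34 and 11.15 in CT and 12.75, 12.50, 12.84 and 13.06 in F1 and rose by 1.72 ± 0.24 (SE) (adjusted p = 0.0336, and 0.0719 without F1 4). Gstt3, a glutathione transferase, read 9.98, 10.42, 10.14 and 10.13 in CT and 8.89, 8.55, 9.44 and 9.21 in F1 (-1.15 ± 0.21 (SE), adjusted p = 0.0876), and the carboxylesterase Ces1g 14.27, 14.89, 14.30 and 14.79 in CT and 13.62, 13.48, 13.41 and 13.33 in F1 (-1.10 ± 0.18 (SE), adjusted p = 0.0619). Both were lower in each F1 library. Cytochromes P450 of families 1 to 3 had 9 of 46 kept members lower and 2 higher at unadjusted p under 0.05, conjugation enzymes 7 and 4 of 45, antioxidant targets of NRF2 5 and 1 of 24, and retinoid metabolism 6 and 2 of 32. These counts depended on single libraries. The lower P450 genes were 2 without CT 2 or CT 3, 4 without F1 1 or F1 2 and 5 without CT 4. The lower conjugation enzymes were 12 without F1 1 and 5 or 6 without any other single library. The higher conjugation enzymes were 1 without CT 2 or CT 3 and 2 without F1 2 or F1 4. The lower NRF2 targets were 3 without F1 3 or F1 4, and the lower retinoid genes 2 without CT 2 or F1 1 and 3 without CT 3, F1 2 or F1 3. Cyp26b1, which degrades retinoic acid, was on the higher side, with 5.23, 6.09, 8.20 and 6.13 in CT and 8.07, 9.44, 10.25 and 8.26 in F1 (adjusted p = 0.225) and CT 3 inside the F1 range.

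In the list on endoplasmic reticulum stress no gene was called. Of 35 kept members, 22 had the higher mean in F1, and 7 were higher and 1 lower at unadjusted p under 0.05. Without F1 4 these were 5 and 1, and the higher ones numbered 11 without F1 3. The lower member was Atf4, a transcription factor of the stress response, with 13, 12.79, 11.93 and 11.56 in CT and 11.35, 11.76, 10.99 and 11.88 in F1 (-0.82 ± 0.33 (SE), adjusted p = 0.503). Hsp90b1, the chaperone GRP94, read 15.57, 15.66, 16.01 and 16.01 in CT and 16.50, 16.65, 16.31 and 16.97 in F1 (0.80 ± 0.19 (SE), adjusted p = 0.203), and Creld2 8.17, 8.96, 10.23 and 9.66 in CT and 10.43, 11.59, 10.08 and 12.33 in F1 (1.85 ± 0.55 (SE); 1.45 without F1 4). F1 4, with the most pancreas transcripts, was the highest library in both, and the part of those transcripts was not tested. Ddit3, the stress factor CHOP, differed by -0.55 ± 0.34 (SE).

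Egln3, an oxygen-dependent prolyl hydroxylase and hypoxia target, read 10.15, 11.23, 11.24 and 10.66 in CT and 9.33, 9.17, 8.88 and 8.71 in F1 and fell by 1.80 ± 0.26 (SE) (adjusted p = 0.0337, and 0.0810 without F1 4). Of the hypoxia list, 1 of 28 was higher and 2 were lower at unadjusted p under 0.05, Egln3 included.

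Of the called genes outside the lists, 3 were lower. Tcim, a small regulator of transcription, read 10.63, 11.10, 10.12 and 10.93 in CT and 8.30, 8.43, 9.15 and 8.37 in F1 and fell by 2.13 ± 0.26 (SE) (adjusted p = 0.0152; -2.07 without F1 4). Mme, which encodes neprilysin, a membrane peptidase, read 12.12, 12.26, 12.61 and 12 in CT and 10.97, 10.93, 10.59 and 10.59 in F1 and fell by 1.48 ± 0.18 (SE) (adjusted p = 0.0152; -1.42 without F1 4). Osbpl8, a lipid transfer protein of the endoplasmic reticulum, read 11.65, 11.55, 11.60 and 11.95 in CT and 10.71, 10.85, 10.66 and 10.76 in F1 and fell by 0.94 ± 0.15 (SE) (adjusted p = 0.0477; -0.95 and adjusted p = 0.0943 without F1 4). Fndc3b, a fibronectin domain protein, was higher, with 11.57, 11.24, 11.30 and 11.64 in CT and 12.80, 13.43, 12.77 and 12.65 in F1, a rise of 1.48 ± 0.20 (SE) (adjusted p = 0.0273; 1.56 without F1 4). F1 2 was the highest library for Fndc3b, and F1 3 the F1 library nearest to CT for Tcim.

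**Figure D5:**
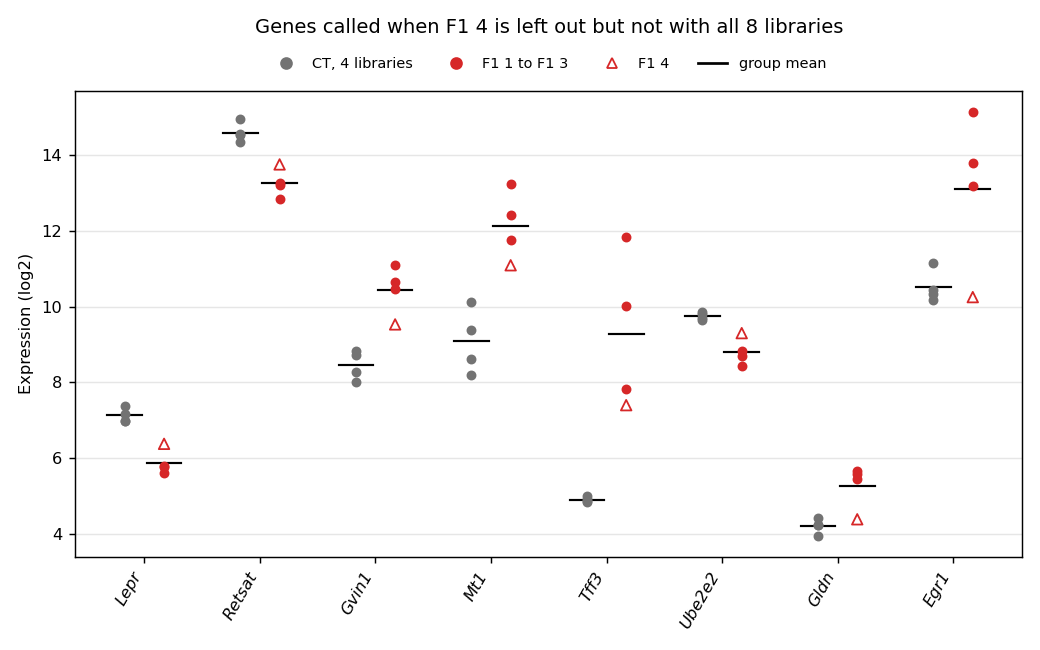
Log2 expression (y axis) of the 8 genes called when F1 4 is left out but not with all libraries (x axis), with CT in grey, F1 1 to F1 3 as red dots, F1 4 as an open triangle and black bars for the means over 4 libraries per group. In each gene F1 4 is the F1 library nearest to CT, and for Egr1 and Gldn it lies within the CT range.

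The genes called only without F1 4 were Lepr, Retsat, Mt1, Tff3 and Egr1, given above, and Gvin1, Gldn and Ube2e2. Gvin1, a large interferon-induced GTPase, read 8.71, 8.28, 8.0 and 8.84 in CT and 10.64, 10.47, 11.11 and 9.53 in F1 (1.98 ± 0.32 (SE), adjusted p = 0.0596; 2.28 without F1 4, adjusted p = 0.0190). Gldn, a matrix protein known from nodes of peripheral nerve, read 4.23, 4.42, 4.23 and 3.96 in CT and 5.67, 5.58, 5.46 and 4.39 in F1 (1.06 ± 0.27 (SE) with all libraries) and Ube2e2, a ubiquitin-conjugating enzyme, 9.81, 9.71, 9.85 and 9.65 in CT and 8.82, 8.43, 8.69 and 9.30 in F1 (-0.94 ± 0.19 (SE)).

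In several groups few or no members passed an unadjusted p under 0.05. Respiratory chain subunits had 1 of 57 kept members lower and none higher at unadjusted p under 0.05, with a median of 0, and the cytosolic ribosomal proteins had none of 40 in either direction. Genes of the urea cycle had none of 9. Peroxisome biogenesis had none of 13 at that p, but 11 members had the lower mean, the median was -0.19, and 2 were lower at that p without F1 4. Antigen presentation had none of 19, and 2 higher without F1 4. Extracellular matrix and fibrosis had 1 lower of 39, and Col1a1, the main fibrillar collagen, differed by -0.07 ± 0.20 (SE). At the same p, amino acid catabolism had 3 higher and 3 lower of 52.

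The threshold fell among genes of like size. Just inside it stood Selenbp1, Atoh8 and Osbpl8, with adjusted p-values of 0.0475 to 0.0477, and just outside it Lepr, Hsd17b11 and Itih4, with 0.0540 to 0.0569. The number of arrays, 4 in each group, limits the precision of every value given here.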

How the data were processed

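Total RNA from frozen tissue was labelled for Affymetrix mouse arrays, per the labels' protocols. The table deposited by the authors holds log2 expression values for 22206 probe sets, and the submitters' processing notes name RMA and Transcriptome Analysis Console 4.0. RMA sets the libraries to a common distribution, so a shift of all genes together cannot be seen. Annotation gave 1 symbol for 19572 probe sets, or 19505 genes. The brightest probe set stood for a gene with several (55 genes). Genes whose mean over the 8 libraries was under the 25th percentile of all values, 3.90, were left out, which kept 14773 of 19505.

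The difference F1 minus CT was fitted by lmFit and eBayes of limma 3.58.1 (R 4.3.3), and a gene was called at a Benjamini-Hochberg adjusted p under 0.05. The script was tested on simulated data. The lists were chosen with earlier results of these data known, and are described by counts and medians, with no test. Genes were named when called, when called only without F1 4, when next to the threshold, or as the list members with the smallest p among those that differed by 1.5-fold or more. Of 138 genes given with values, 45 lie outside this rule and were chosen after their values were seen: Abcb11, Acadm, Apcs, Aqp1, Aqp7, Aqp9, Arntl, Atf4, C2, C8a, Cftr, Ciart, Col1a1, Cpt1a, Crp, Cyp2d9, Cyp7a1, Ddit3, Ehhadh, Elovl3, Fkbp5, Fth1, Ghr, Hamp, Hnf4a, Hp, Igf1, Il6st, Insr, Lrg1, Mpc1, Muc1, Mup3, Orm2, Pck1, Ppara, Saa1, Saa2, Serpina3n, Slc10a1, Slc25a20, Slc40a1, Sox9, Tfrc and Tsc22d3. Promoters came from a RefSeq table of build GRCm38.p6, which matched 13 of 16 called higher and 6 of 7 called lower genes. Alternatives covered the dim filter, the variance model, array weights, scaling, a replicate block, all 16 libraries in 1 fit and each library left out.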

Additional observations from a re-analysis of the deposited data

Results flagged for a closer look

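In 22 of 372 groups of 4 libraries, from 138 genes and 48 list levels, 1 library stood far from the other 3, with a gap above Dixon's critical share of the group's range. Chance marks about 1 in 20 such groups.

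Among genes in CT, CT 4 was lowest for Cxcl1 at 4.73, highest for C2 at 8.94, for Mup3 at 19.83 and for Cyp2d9 at 19.30. CT 2 was highest for Marco at 10.76 and for Aqp1 at 13.91 and lowest for Orm2 at 6.22, and CT 1 was lowest for Tsc22d3 at 12.13. Among genes in F1, F1 3 was highest for Tcim at 9.15, for Il6ra at 13.49 and for Pck1 at 19.04 and lowest for Elovl3 at 14.91. F1 4 was lowest for Gldn at 4.39, and F1 1 was lowest for Mup3 at 19.75.

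Of list levels, the median over members in a library, F1 3 was lowest for hormone and metabolic receptors at 9.05 and highest for glycolysis, fructose and pentose phosphate metabolism at 10.13 and for glucocorticoid targets at 14.02. F1 2 was lowest for toll-like and innate sensors at 6.85, and F1 1 was highest for female-biased genes at 8.31. CT 2 was lowest for peroxisome biogenesis at 9.70 and for antigen presentation at 7.51, and CT 4 was highest for extracellular matrix at 7.09.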

How the results depend on the processing

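The count of 23 called genes (16 higher, 7 lower) was 24 with no dim filter, 26 with a filter at the median, 20 with array weights, 22 after another quantile normalization and 23 with the mean of probe sets. It was 74 (45 higher, 29 lower) with a trended robust variance, 51 (31 and 20) in 1 fit over 16 libraries, 35 (19 and 16) after median centring and 53 (34 and 19) at an adjusted p under 0.1. With 1 library left out it ran from 7 to 24 in all, from 5 to 17 higher and from 0 to 7 lower. Without F1 1 and F1 2, an alternative chosen after seeing the data, it was 9 (9 higher, 0 lower by limma). Deviations of same-numbered libraries correlated at -0.057 to 0.055, and those of differently numbered ones at -0.07 to 0.1. Over all genes the numbers thus marked no strong shared deviation, but such correlations cannot exclude a pairing that touches few genes. The replicate block gave 6 calls (6 higher, 0 lower), 5 of them among the 23. With the block 1267 genes had an unadjusted p under 0.05, and without F1 1 and F1 2 there were 1230.

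Of the list medians, that of glucose and monocarboxylate transporters moved to 0.36 with the filter at the median, and iron to -0.12 without F1 1 and F1 2. With 1 library left out, iron ran from -0.11 (without F1 1) to 0.13 and interleukin-6 and STAT3 from 0.46 to 0.68 (without F1 4). Without F1 1 and F1 2 the clock list was at 0.76 and the NRF2 list at -0.28. The acute-phase median stayed between 0.72 and 0.86 and that of fatty acid oxidation between -0.57 and -0.30 over all alternatives run. The cause of these moves was not tested.

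Signs turned only in genes far from the threshold. With 1 library left out, Hamp ran from -0.20 to 0.34, Cyp7a1 from -0.12 to 0.92, Slc40a1 from -0.18 to 0.07, Pck1 from -0.09 to 0.16, Col1a1 from -0.20 to 0.08 and Fth1 from -0.08 to 0.02. Without F1 1 and F1 2, Hamp was at -0.40, Cyp7a1 at -0.21, Tfrc at -0.10 and Lipg at 0.52. After another quantile normalization Fth1 was at 0.04 and Ghr at 0. Values near the top of the scale are compressed, and the 4 arrays in each group limit the precision.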
